A study of Mus musculus with 6 samples.

Results

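The colony-stimulating factor (CSF) genes Csf1, Csf2 and Csf3, the receptor gene Csf1r, and 6 genes of the interleukin-1 (IL-1) axis, Il1a, Il1b, Il1r1, Il1rap, Il33 and Il1rl1, were described in mouse cardiomyocytes with lowered Gdf11. These are 10 of the 54532 genes listed, each found by its gene name. They were chosen by measured values as well as by function: the difference of Csf3 and other cytokine genes between the same libraries was known when the set was drawn up. The differences of the 10 genes between the groups are therefore given as a description, with no p-value. Their limma calls are counted beside the share over all genes, and again under other settings at the end, and nothing is read from them. The levels in single libraries, the order of the levels, sequence features and the other genes of the 2 pathways are given beside them.

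All 6 libraries came from primary ventricular cardiomyocytes of C57BL/6J mice 1 day old, a strain that the sample labels give as C57BL/6. In 3 libraries the cells carried a short hairpin RNA against Gdf11 (shGDF11), and in the other 3 a control hairpin, named sh-nc in the labels and sh-Vector in the protocol. Hairpins of both groups were given at a multiplicity of infection of 200, and RNA was taken after 48 h. The labels do not give the hairpin sequence or the vector, nor whether a sample number stands for a culture or a hairpin. They also leave unsaid whether the 3 samples in each group were separate cultures. The p-values given for other genes therefore measure the spread between these samples alone, and that spread may be technical.

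CSFs are secreted glycoproteins that drive the growth, survival and maturation of myeloid cells. M-CSF, the product of Csf1, keeps macrophages alive through its receptor CSF1R, GM-CSF (Csf2) acts on granulocytes and macrophages, and G-CSF (Csf3) drives the production and release of neutrophils. IL-1 alpha (Il1a) and IL-1 beta (Il1b) bind the receptor IL1R1, which recruits the accessory protein IL1RAP and signals through MYD88 and IRAK kinases to NF-kB and MAP kinases. IL-33 (Il33), a nuclear alarmin of stromal and endothelial cells, uses the same accessory protein with the receptor ST2 (Il1rl1), which is found on mast cells and type 2 lymphoid cells and, in a soluble form, binds IL-33 as a decoy. In many cell types IL-1 induces CSF genes, and the messages of some of these cytokines are short-lived through AU-rich elements, repeats of AUUUA in the 3′ untranslated region (UTR).

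The AU-rich stretches of the ligand messages are shown because the ligand genes differ in how densely AUUUA is packed. Each window of 30 bases holds the most ATTTA copies (AUUUA in RNA) of that gene's 3′ UTR, read from the GENCODE M21 transcript on GRCm38 and given 5′ to 3′ on the gene's strand, with ATTTA in capitals. The window of the receptor gene Il1r1 stands last for comparison.
Csf2: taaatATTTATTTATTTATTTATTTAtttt
Csf3: gtttATTTAtctctATTTAatATTTAtgca
Il1b: cttacctATTTATTTAtgtATTTAttgatt
Il1a: tctatgtATTTAtaaatatATTTAtgataa
Csf1: taaggtcATTTAaatatctATTTAaaaaat
Il1r1: tttaaaaataATTTAtATTTAtactggtca
The windows lie at chr11:54247325-54247354 (minus strand, Csf2), chr11:98702988-98703017 (plus strand, Csf3) and chr2:129364802-129364831 (minus strand, Il1b). The other windows lie at chr2:129300103-129300132 (minus strand, Il1a), chr3:107741103-107741132 (minus strand, Csf1) and chr1:40316001-40316030 (plus strand, Il1r1). Csf2 carried 9 ATTTA copies in a 3′ UTR of 317 bases, and none of 1148 tested genes with a 3′ UTR of 0.8 to 1.25 times that length held as many. Csf3 carried 6 in 669 bases, a number reached by 1.43% of 1606 tested genes of like length. Il1b carried 4 in 459 bases, reached by 2.97% of 1346 such genes. The ligand genes Il1a, Csf1 and Il33 carried 3, 4 and 3 copies in 1101, 2111 and 1663 bases, numbers reached by 33.5%, 47.5% and 49.7% of tested genes of like length. The longer element TTATTTATT was found only in Csf2 among the 10 genes, in 4 places, against 7.31% of the 3′ UTRs of 12428 tested genes. Csf2, Csf3 and Il1b thus had dense AU-rich stretches, while the density in Il1a, Csf1, Il33 and Il1r1 was at most 2.73 copies per kb, against a median of 1.27 over tested genes.

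Start-site regions were read for 8 of the 10 genes, with 11 start sites, from RefSeq on GRCm38.p6 (250 bases before to 50 after the start). Csf3 and Csf1r were not analysed here. The motifs below were searched on both strands and stand in capitals: the kappaB motif of NF-kB, TGANTCA of AP-1, TGACGTCA of cAMP-response factors and TTGCNNAA of C/EBP factors. The 250 bases before the start are shown for the NF-kB-linked ligand gene Csf1, for Il1a, lower in shGDF11, and for the upstream start of Il1r1, higher in shGDF11.
Csf1: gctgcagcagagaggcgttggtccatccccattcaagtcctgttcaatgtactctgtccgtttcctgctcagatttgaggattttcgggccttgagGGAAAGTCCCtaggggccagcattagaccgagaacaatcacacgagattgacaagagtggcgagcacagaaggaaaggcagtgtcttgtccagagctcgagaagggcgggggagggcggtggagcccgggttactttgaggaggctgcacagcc
Il1a: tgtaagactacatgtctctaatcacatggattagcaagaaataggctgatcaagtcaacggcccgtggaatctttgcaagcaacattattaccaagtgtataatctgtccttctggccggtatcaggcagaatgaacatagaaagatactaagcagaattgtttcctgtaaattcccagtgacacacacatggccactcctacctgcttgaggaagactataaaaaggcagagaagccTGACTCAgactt
Il1r1: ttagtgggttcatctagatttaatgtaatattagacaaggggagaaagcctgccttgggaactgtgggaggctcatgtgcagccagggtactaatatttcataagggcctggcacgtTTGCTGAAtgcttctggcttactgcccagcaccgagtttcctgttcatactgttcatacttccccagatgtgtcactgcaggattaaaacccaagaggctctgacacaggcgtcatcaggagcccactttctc
They lie at chr3:107760470-107760719 (minus strand, Csf1), chr2:129309973-129310222 (minus strand, Il1a) and chr1:40224830-40225079 (plus strand, Il1r1). Csf1 held 1 kappaB match whose first base lay at -154 from the start, a motif found in 8.46% of 32851 promoters. Il1a held TGACTCA at -12, next to the start, and TGANTCA occurred in 7.81% of promoters. The upstream start of Il1r1 held TTGCTGAA at -133 (TTGCNNAA in 10.8% of promoters), and its second start held a kappaB match at -232. Csf2, Il1rl1 and the second start of Il33 also held TTGCNNAA, at -145, -34 and -85. Il1b, Il1rap, the second start of Il1rl1 and the upstream start of Il33 held none of the motifs shown in capitals, and TGACGTCA, found in 1.79% of promoters, was in none of the 11. Of other motifs searched, the SMAD motif CAGAC stood in Il1a, Csf2, Il1rap, the upstream start of Il1r1 and the second start of Il33 (49.6% of promoters). ACGTG of hypoxia-inducible factors stood in Il1rap and the upstream start of Il1r1 (19.6%), and TTCNNNGAA of STAT factors (8.30%) in none. The motifs are matches of letters in these windows and were not tied to binding.

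The depth was 15267083 to 16152910 reads in listed genes per library, and levels are FPKM, reads scaled by gene length and library depth. The FPKM of all listed genes summed to 351657 in control replicate 1 and to 316233 and 315542 in control replicates 2 and 3. In shGDF11 libraries the sum was 304770 to 309981. Gdf11, the target of the hairpin, was at 2.76, 2.30 and 2.31 FPKM in control libraries 1 to 3 and at 0.614, 0.601 and 0.778 FPKM in shGDF11 libraries 1 to 3. The shGDF11 mean was 27.1% of control (limma adjusted p = 0.00079, log2 fold change -1.34 ± 0.125 SE). With 3 against 3 an exact permutation test (two-sided) cannot go below p = 0.1, which is what it returned. Of 15418 tested genes (mean of at least 0.5 FPKM), limma called 4253, or 27.6%, with 14.4% higher and 13.1% lower in shGDF11. Higher genes made up 52.4% of the calls on the FPKM scale and 66.2% once values were rescaled to TPM. The counts of higher and lower genes were 1414 and 1308 without shGDF11 replicate 1, 1263 and 1083 without replicate 2, and 1363 and 1172 without replicate 3. The median log2 fold change of all tested genes was 0.0063, and 10% of genes lay below -0.46 and 10% above 0.50. Log2 fold changes here are differences of log2(FPKM + 0.5), shGDF11 minus control, which understates the change of low genes.

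**Figure D1:**
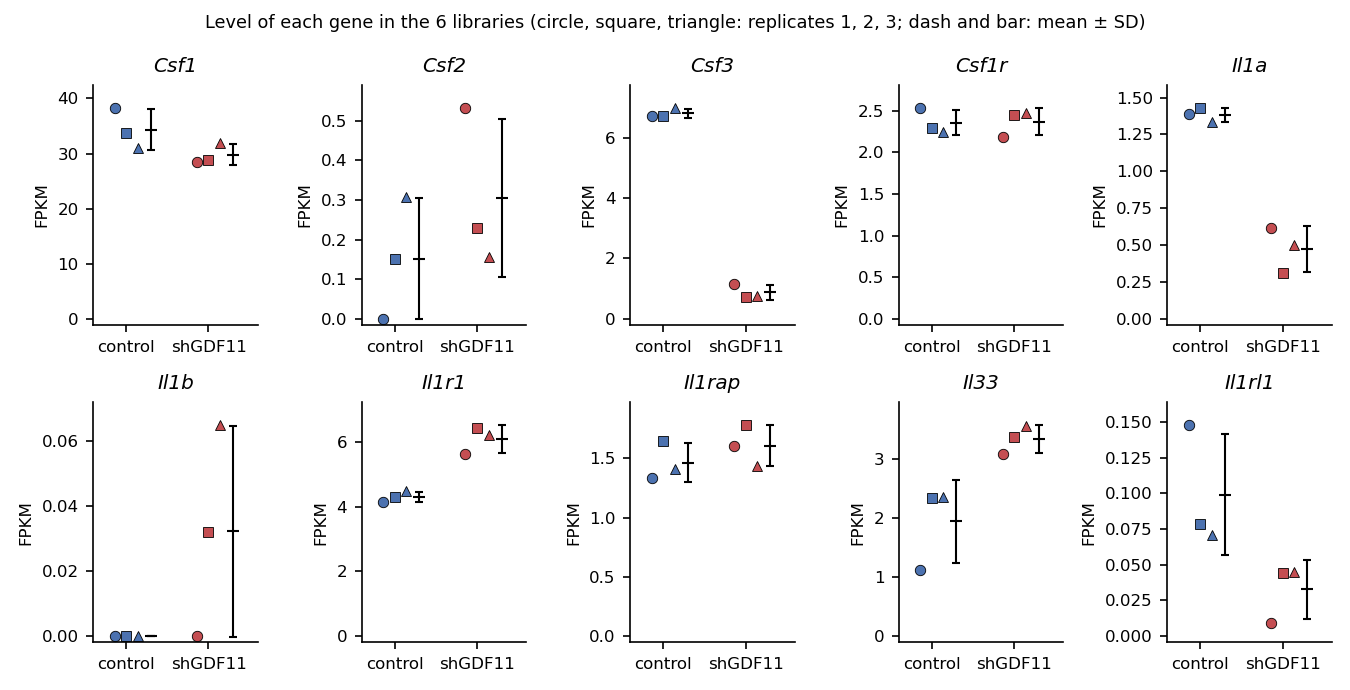
Level (FPKM, linear axis from 0, a separate scale for each gene) of the 10 genes in each of the 3 control and 3 shGDF11 libraries, with a point per library (circle, square and triangle for replicates 1, 2 and 3) and a dash and bar for mean ± SD. Csf3 lay at 6.71 to 6.98 FPKM in control and at 0.735 to 1.16 FPKM in shGDF11, Il1r1 and Il33 lay higher in shGDF11, and the values of Csf1, Csf1r and Il1rap overlapped.

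Csf3 had the largest difference of the 10 genes. The gene (ENSMUSG00000038067) lies at 98701263 to 98703629 on the plus strand of chromosome 11. It was at 6.71, 6.71 and 6.98 FPKM in control libraries 1 to 3, from 149, 158 and 161 reads. In shGDF11 libraries 1 to 3 it was at 1.16, 0.735 and 0.746 FPKM, from 27, 17 and 17 reads. The 3 controls lay close together, and the highest shGDF11 library lay far below the lowest control. Mean levels were 6.80 ± 0.159 and 0.881 ± 0.244 FPKM (SD, n = 3 in each group, as for every mean ± SD here), so that 13.0% of the control level was left. Summed reads scaled by depth were 7.72-fold higher in control (95% exact interval 5.90 to 10.3, counting error only, as for all intervals given here). On the log2 scale Csf3 differed by -2.42 ± 0.131 (SE), and by -2.95 in limma voom on recovered reads.

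Csf1 was the most abundant member and differed much less. The gene (ENSMUSG00000014599, 107741048 to 107760469 on the minus strand of chromosome 3) was at 38.3, 33.6 and 30.9 FPKM in control. Its shGDF11 levels were 28.4, 28.9 and 32.0 FPKM. Control replicate 1 was the highest library, and shGDF11 replicate 3 lay above control replicate 3, so the groups overlapped. The means of 34.3 ± 3.71 and 29.8 ± 1.93 FPKM gave a log2 fold change of -0.20 ± 0.0911 (SE). Reads put the ratio of shGDF11 to control at 0.868 (0.842 to 0.895), an interval that leaves out the spread between libraries.

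Csf2 was near the limit of detection. The gene (ENSMUSG00000018916, 54247271 to 54249667 on the minus strand of chromosome 11) had 0, 2 and 4 reads in control and 7, 3 and 2 reads in shGDF11. A floor of 3 reads stands for 0.225 to 0.239 FPKM at its length, and the ratio of its summed reads was 1.99 (0.69 to 6.45), so no difference was detectable at this depth. The antisense gene Gm12223, with 3 reads in control and 9 in shGDF11, covers 12% of the exon bases of Csf2, and whether counting used the strand is not given in the sources used here. Csf2 and Csf3, both on chromosome 11 and both with dense AU-rich stretches, thus lay far apart in level in control cells.

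Csf3 made up a smaller part of CSF ligand message in shGDF11. Of the summed FPKM of Csf1, Csf2 and Csf3, Csf3 held 14.9%, 16.6% and 18.3% in control libraries 1 to 3. In shGDF11 libraries 1 to 3 it held 3.86%, 2.46% and 2.27%. The level of Csf1 was 5.70, 5.02 and 4.43 times that of Csf3 in control and 24.4, 39.3 and 42.9 times in shGDF11. In bulk RNA such as this, fewer cells of a type and less RNA per cell cannot be told apart.

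Csf1r, the M-CSF receptor and a marker of macrophages, differed between the groups by less than the spread of the libraries. The gene (ENSMUSG00000024621) was at 2.53, 2.30 and 2.25 FPKM in control and at 2.18, 2.45 and 2.47 FPKM in shGDF11. The means were 2.36 ± 0.15 and 2.37 ± 0.163 FPKM, and the ratio of reads was 1.00 (0.892 to 1.13). Hmgxb3 on the other strand covers 15.1% of the exon bases of Csf1r in GENCODE M21. It lay at 10.7 FPKM in control and at 8.49 FPKM in shGDF11. The deposited length of Csf1r was 4885 bases, against 5774 exon bases in GENCODE M21, and the coordinates differed. How much of the deposited model Hmgxb3 covers is therefore not known. The part of Hmgxb3 in the reads of Csf1r was not tested.

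Macrophage markers were lower as a sum while Csf1r was not. Of 21 markers, 17 were tested, 5 fell and none rose by limma (Csf1r is counted among the members, not here). The share of falls was 29.4%, against 13.1% over all tested genes. The 5 were the complement genes C1qa and C1qb, the lysozyme gene Lyz2, Laptm5 and the mannose receptor gene Mrc1. C1qb fell from 11.7 ± 0.211 to 6.46 ± 0.836 FPKM (limma adjusted p = 0.0016). Mrc1 lost its call when control replicate 2 or 3 or any 1 shGDF11 library was left out, with limma adjusted p from 0.0078 to 0.103 over its alternatives. Adgre1, which encodes F4/80, had no call, at 0.902 ± 0.0959 and 0.929 ± 0.141 FPKM. Lyve1 lay higher in shGDF11 without overlap of the libraries, at 5.60 ± 0.381 and 6.75 ± 0.764 FPKM, and was not called. The 21 markers summed to 219.1 to 242.8 FPKM in control libraries and to 175.8 to 186.4 FPKM in shGDF11 libraries. None of the 21 was at 0 in all libraries. Lyz2, the highest of them, alone went from 114.3 ± 7.50 to 85.3 ± 4.70 FPKM. Macrophages make and answer to CSFs and IL-1, and the part of these cells in the differences of Csf3 and Il1a was not tested.

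Markers of neutrophils, the cells that G-CSF calls up, were near 0. The neutrophil elastase gene Elane had no read in any library, Ly6g had 3 reads in control and 0 in shGDF11, and Mpo had 2 and 1. Some neutrophil markers had more reads in shGDF11. Ltf had 13 in control and 31 in shGDF11, without overlap of the libraries. Ngp had 2 and 10, S100a8 15 and 20, and S100a9 0 and 6. The G-CSF receptor gene Csf3r, also a neutrophil gene, had 11 reads in control and 2 in shGDF11. Of 10 neutrophil markers 2 were tested, S100a8, which was not called, and Camp, an antimicrobial peptide gene, which fell from 3.17 to 1.30 FPKM. The share of falls was 50%, from 1 gene, against 13.1% over all tested genes. Over the 10 the sum was 3.36 to 4.12 FPKM in control libraries and 1.57 to 3.65 FPKM in shGDF11 libraries. Markers of other cells also moved with the groups. Of 12 endothelial markers 9 fell (summed level 116.2 to 125.2 against 83.2 to 86.1 FPKM). Of 9 smooth muscle and pericyte markers 3 fell, and of 12 fibroblast markers 3 rose. The shares of falls were 75% and 33.3%, against 13.1% over all tested genes. The share of rises among fibroblast markers was 25%, against 14.4%. The endothelial count was 9 whichever library was left out, while that of smooth muscle and pericyte markers was 1 without control replicate 2 or shGDF11 replicate 1. The defining markers of cardiomyocytes were the highest of all lists, at a summed 5074 to 5877 FPKM in control and 5073 to 5368 FPKM in shGDF11. Within that sum 4 of the 12 rose, among them Ckmt2 (109.9 to 178.6 FPKM), and 5 fell, among them Myl3 (706 to 483 FPKM). These were 33.3% and 41.7% of the list, against 14.4% and 13.1% over all tested genes. Without control replicate 2 or any 1 shGDF11 library 1 to 2 rose, and 2 to 3 fell when control replicate 2 or 3 or any 1 shGDF11 library was left out. The part of these cell types in the cytokine differences was not tested.

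**Figure D2:**
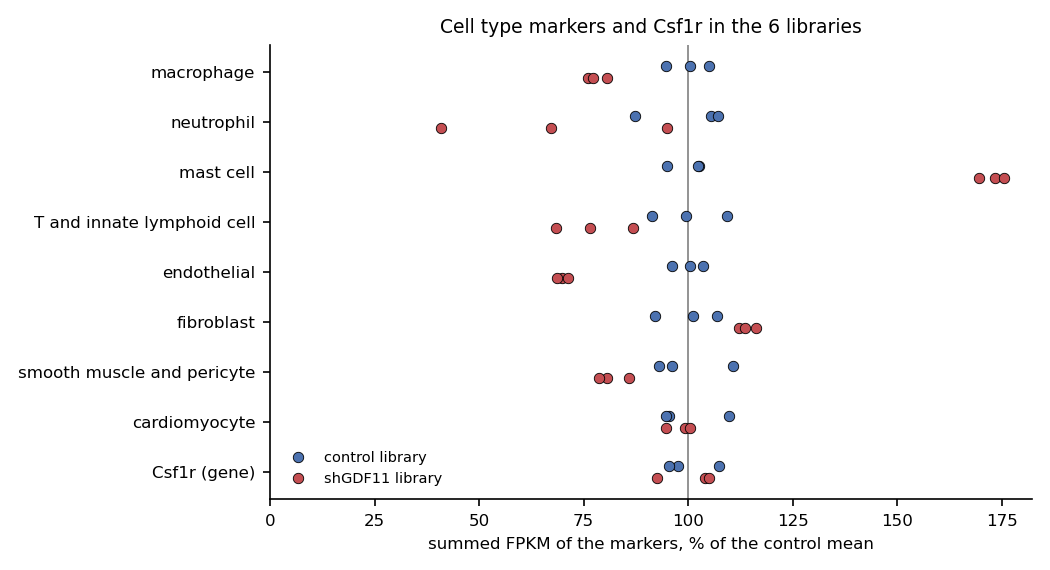
Summed FPKM of each list of cell type markers, as a percent of the control mean, in the 6 libraries (blue control, red shGDF11), with Csf1r alone in the lowest row. Macrophage sums (219.1 to 242.8 against 175.8 to 186.4 FPKM) and endothelial sums lay lower in shGDF11, mast cell sums lay higher through Mcpt4, and Csf1r and the cardiomyocyte sums, with 4 markers higher and 5 lower, overlapped.

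Of Il1a and Il1b, only Il1a had reads above the floor in these libraries, and bulk RNA does not show which cells expressed it. The gene (ENSMUSG00000027399, 129299610 to 129309972 on the minus strand of chromosome 2) was at 1.39, 1.43 and 1.34 FPKM in control libraries 1 to 3, from 43, 47 and 43 reads. It was at 0.617, 0.309 and 0.502 FPKM in shGDF11 libraries 1 to 3, from 20, 10 and 16 reads. All 3 shGDF11 libraries lay below all 3 controls. The control mean was 1.38 ± 0.0465 FPKM and the shGDF11 mean 0.476 ± 0.155 FPKM, or 34.4% of control, and summed reads were 2.91-fold higher in control (2.07 to 4.16). The log2 fold change was -0.96 ± 0.162 (SE), and -1.56 in limma voom. Il1a passed the filter only through its control level, so a test of it could hardly have gone the other way. Gm14023 on the other strand covers 11.3% of its exon bases, with 15 reads in control and 20 in shGDF11.

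Il1b, the neighbour of Il1a on chromosome 2 (ENSMUSG00000027398, 129364570 to 129371139, minus strand), was all but absent from the counts. It had 0 reads in each control library and 0, 1 and 2 reads in the shGDF11 libraries. A floor of 3 reads stands for 0.0944 to 0.1 FPKM at its length, and every library lay below it, so no fold is given. The receptor antagonist gene Il1rn, a natural blocker of IL-1 that also lies on chromosome 2, was at 1.34 ± 0.353 FPKM in control and 0.860 ± 0.0214 FPKM in shGDF11. Limma did not call Il1rn (adjusted p = 0.11, from 0.0214 to 0.262 over its alternatives). Without control replicate 1 it was called as lower (limma adjusted p = 0.0216).

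The signalling receptor Il1r1 differed in the direction opposite to its ligand Il1a. The gene (ENSMUSG00000026072, 40225080 to 40317257 on the plus strand of chromosome 1) was at 4.15, 4.29 and 4.47 FPKM in control and at 5.62, 6.44 and 6.22 FPKM in shGDF11. The groups did not overlap, and the gap between them was larger than the range within either. Means were 4.30 ± 0.16 and 6.10 ± 0.423 FPKM, or 141.7% of control, with a ratio of reads of 1.41 (1.32 to 1.52) and a log2 fold change of 0.46 ± 0.0764 (SE). The level of Il1r1 was 2.99, 3.00 and 3.35 times that of Il1a in control libraries and 9.12, 20.8 and 12.4 times in shGDF11 libraries.

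The shared accessory receptor Il1rap (ENSMUSG00000022514, 26581704 to 26730117 on the plus strand of chromosome 16) was at 1.33, 1.65 and 1.41 FPKM in control. Its shGDF11 levels were 1.61, 1.78 and 1.44 FPKM, which overlapped the control values. The means of 1.46 ± 0.164 and 1.61 ± 0.172 FPKM gave a log2 fold change of 0.10 ± 0.119 (SE) and a ratio of reads of 1.10 (0.995 to 1.21). The ratio of Il1r1 to Il1rap was 2.60 to 3.17 in control and 3.50 to 4.34 in shGDF11.

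Il33 was higher in shGDF11, with 1 control library far from the others. The gene (ENSMUSG00000024810, 29925114 to 29960718 on the plus strand of chromosome 19) was at 1.12, 2.33 and 2.36 FPKM in control and at 3.08, 3.36 and 3.54 FPKM in shGDF11. Every shGDF11 library lay above every control. Control replicate 1 held 51 reads (95% exact Poisson interval 38.0 to 67.1) where the other 2 held 112 and 111 (92.2 to 134.8 and 91.3 to 133.7), so it lay apart by more than counting error. Control replicate 1 was also the library with the highest summed FPKM of all listed genes. The means were 1.94 ± 0.704 and 3.33 ± 0.235 FPKM, a ratio of reads of 1.70 (1.47 to 1.99), and the log2 fold change was 0.70 ± 0.22 (SE). Without control replicate 1 the shGDF11 level was 142.1% of control in place of 171.9%, and the log2 fold change was 0.43. Fibroblasts and endothelial cells can express Il33. Endothelial markers summed to 125.2, 121.5 and 116.2 FPKM in control libraries 1 to 3. Fibroblast markers summed to 461.4, 437.4 and 397.5 FPKM, an order set by Col1a1 (167.7, 142.4 and 107.6 FPKM), while Dcn, Lum, Pdgfra and Postn were lowest in control replicate 1. The part of these cells in the level of Il33 was not tested.

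The IL-33 receptor gene Il1rl1 was scarce in every library. The gene (ENSMUSG00000026069, 40429570 to 40465415 on the plus strand of chromosome 1) had 16, 9 and 8 reads in control and 1, 5 and 5 reads in shGDF11. The groups did not overlap, and summed reads were 3.02-fold higher in control (1.49 to 6.62). All levels were at or below 0.148 FPKM, under the filter, and gene-level values cannot separate the messages of membrane-bound and soluble ST2. Mast cells, which carry ST2, showed other values. Of 9 mast cell markers 5 were tested, 2 rose and none fell. The share of rises was 40%, against 14.4% over all tested genes. The 2 were the protease genes Mcpt4 and Cpa3, Mcpt4 from 13.2 ± 1.19 to 27.1 ± 0.563 FPKM (limma adjusted p = 0.0004). Cpa3 was not called without control replicate 2 or shGDF11 replicate 1 or 3, with limma adjusted p from 0.0045 to 0.078 over its alternatives. Kit was at 1.89 ± 0.0238 and 1.44 ± 0.172 FPKM, without overlap, and the chymase gene Cma1 at 2.30 ± 0.501 and 1.67 ± 0.357 FPKM, and neither was called. The IgE receptor genes Fcer1a and Ms4a2 had no read and 3 reads in all. The 9 mast cell markers summed to 18.0 to 19.5 FPKM in control and 32.2 to 33.3 FPKM in shGDF11, a difference that lay almost wholly in Mcpt4. T and innate lymphoid cell markers summed to 2.33 to 2.79 and 1.74 to 2.21 FPKM. The part of these cells in the reads of Il1rl1 was not tested.

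Il1r1 and Il1rl1 lie in a cluster of IL-1 receptor genes on chromosome 1, and none of its other tested genes was called. The decoy receptor gene Il1r2 was at 0.742 ± 0.14 and 0.503 ± 0.129 FPKM, and the IL-36 receptor gene Il1rl2 at 0.994 ± 0.213 and 0.807 ± 0.0491 FPKM, in control and shGDF11. Limma called neither (adjusted p = 0.24 and 0.40). The IL-18 receptor genes had 11 (Il18r1) and 19 (Il18rap) reads in control and 23 and 8 in shGDF11.

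**Figure D3:**
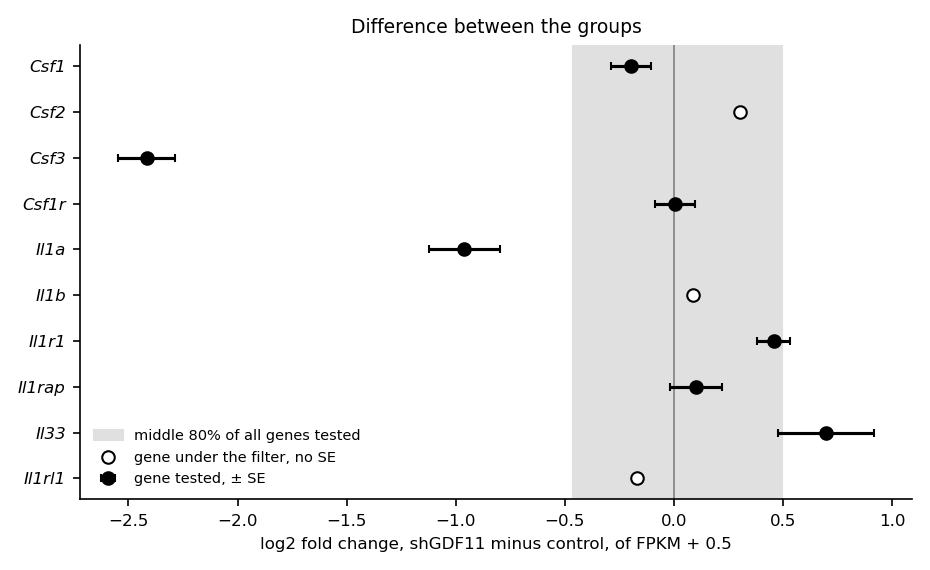
Log2 fold change (shGDF11 minus control, log2(FPKM + 0.5)) of the 10 genes, with its SE for the 7 that passed the filter (filled) and without for the 3 below it (open), over a grey band for the middle 80% of all 15418 tested genes. Csf3 (-2.42) and Il1a (-0.96) lay below that range, Il33 (0.70) lay above it, and Csf1, Csf1r, Il1r1 and Il1rap lay within it.

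The order of the members by level per length differed between the groups. In control it was Csf1, Csf3, Il1r1, Csf1r, Il33, Il1rap, Il1a, Csf2, Il1rl1 and Il1b. The library values of neighbours overlapped for Csf1r and Il33, Il33 and Il1rap, Il1rap and Il1a, and Csf2 and Il1rl1, so these neighbours did not differ beyond their spread. In shGDF11 it was Csf1, Il1r1, Il33, Csf1r, Il1rap, Csf3, Il1a, Csf2, Il1rl1 and Il1b, with overlap between Il1a and Csf2 and between Il1rl1 and Il1b. Csf3 moved from rank 2 to rank 6, and Il33 from rank 5 to rank 3. The level of Il33 was 0.811, 1.63 and 1.77 times that of Il1a in control and 4.99, 10.9 and 7.05 times in shGDF11.

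Of the 10 members, 7 passed the filter, and limma called 1 as higher (Il1r1) and 2 as lower (Csf3 and Il1a). Since these values helped to choose the members, nothing is read from the counts beside the shares of 14.4% and 13.1% over all tested genes. The other 4, Csf1, Csf1r, Il1rap and Il33, were not called. Among all 10, the libraries of the groups did not overlap for 5, with 2 higher (Il1r1 and Il33) and 3 lower (Csf3, Il1a and Il1rl1) in shGDF11. Among the 7 tested members the groups did not overlap for 4, beside 45.8% of all tested genes.

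The other genes of the CSF system gave calls in both directions. Of 29 genes of ligands, receptors and receptor signalling, 24 were tested, 6 rose, 3 fell and 15 were not called, and the list's median log2 fold change was 0.02, beside 0.0063 for all tested genes. The calls were 25% higher and 12.5% lower, against 14.4% and 13.1% over all tested genes, so the share of falls was near that background. Jak1, a kinase of cytokine receptors, rose from 15.6 ± 0.769 to 28.2 ± 1.21 FPKM (limma adjusted p = 0.00043). The phosphatase gene Ptpn11 rose from 22.4 to 31.4 FPKM and the RAS exchange factor gene Sos1 from 4.83 to 7.77 FPKM. Csf2rb, the shared beta chain of the GM-CSF, IL-3 and IL-5 receptors, fell from 1.66 ± 0.331 to 0.779 ± 0.232 FPKM (limma adjusted p = 0.0218). The transcription factor gene Stat5a fell from 4.03 to 2.91 FPKM. Inpp5d, which encodes the phosphatase SHIP1 and was named after its values were seen, fell from 1.00 to 0.473 FPKM. Inpp5d passed the filter only through its control level, so a test of it could hardly have gone the other way. The GM-CSF receptor alpha chain gene Csf2ra was at 9.74 ± 0.842 and 11.7 ± 1.97 FPKM, and Il34, the other ligand of CSF1R, at 2.76 ± 0.451 and 2.27 ± 0.394 FPKM. Limma called neither (adjusted p = 0.20 and 0.28).

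Several of these CSF calls were lost when 1 library was left out. Calls over all tested genes also dropped without shGDF11 replicate 2, from 2227 to 1263 higher and from 2026 to 1083 lower. The count of falls was 1 without shGDF11 replicate 1, 2 or 3, and the count of rises was 3 without shGDF11 replicate 2. Csf2rb was not called without control replicate 1 or 2 or shGDF11 replicate 1 or 2, and its limma adjusted p ran from 0.0014 to 0.0742 over its alternatives. Inpp5d lost its call when control replicate 3 or any 1 shGDF11 library was left out (limma adjusted p 0.00088 to 0.0756 over its alternatives). Stat5a was not called without shGDF11 replicate 3 (0.0032 to 0.0544). Socs2, a feedback inhibitor that rose from 3.96 to 5.13 FPKM, was not called without shGDF11 replicate 2 (0.0033 to 0.059).

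Among other genes of the IL-1 family and of the inflammasome that processes its ligands, 3 rose and none fell of 18 tested out of 30. The 16.7% that rose lay near the 14.4% over all tested genes. The median log2 fold change was -0.08. Il18bp, the secreted antagonist of IL-18, rose from 1.64 ± 0.302 to 4.70 ± 0.713 FPKM (limma adjusted p = 0.0014), a log2 fold change of 1.28 ± 0.146 (SE). Txnip, a thioredoxin-binding protein linked to NLRP3, rose from 106.2 to 158.5 FPKM, and Nek7, a kinase that NLRP3 needs, from 8.02 to 12.2 FPKM. Nlrp3 itself had 16 reads in control and 9 in shGDF11. Casp1, the protease that matures IL-1 beta, had no call, at 0.984 and 0.804 FPKM. The ligand genes Il1f5, Il1f6 and Il1f8 and the receptor-like gene Il1rapl1 had no read in any library.

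Genes of signalling below the IL-1 receptor gave 8 falls, 2 rises and 23 without a call among 33 tested of 35. In all 30.3% were called, near the 27.6% over all tested genes, with 24.2% lower against 13.1%. The list's median log2 fold change was -0.11. The kinase gene Map3k3 fell from 16.4 to 10.9 FPKM (limma adjusted p = 0.0018). Nfkb2 fell from 16.3 ± 1.97 to 9.88 ± 0.758 FPKM, and Relb, its partner in the alternative NF-kB pathway, from 7.36 to 4.97 FPKM. The NF-kB subunit gene Rela fell from 30.1 ± 4.82 to 20.7 ± 1.88 FPKM (limma adjusted p = 0.022, from 0.0026 to 0.0796 over its alternatives). Nfkb1 and Rel were not called. Irak3, Map3k8 and Map2k4 also fell. The receptor-associated kinase gene Irak2 fell from 3.23 to 2.14 FPKM. The rises were Map3k7, which encodes the kinase TAK1 (18.0 ± 2.10 to 29.4 ± 0.707 FPKM, limma adjusted p = 0.0022), and its adaptor gene Tab2 (23.3 to 29.0 FPKM). Tab2 was not called without any 1 of the shGDF11 libraries, and its limma adjusted p ran from 0.0055 to 0.0822 over its alternatives. The adaptor gene Myd88, at 12.6 ± 0.531 and 11.0 ± 0.727 FPKM, had a limma adjusted p of 0.091 and no call. The count of falls was 4 when control replicate 2 or shGDF11 replicate 1 or 3 was left out, and that of rises was 1 without any 1 shGDF11 library.

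Genes that IL-1 induces in many cell types differed most of the 5 pathway lists. Of 32 such genes 30 were tested, 19 fell, 3 rose and 8 were not called. The share of falls was 63.3%, against 13.1% over all tested genes. Their median log2 fold change was -0.66. Many of them are also induced by other cytokines. The list was drawn up with earlier results of these libraries known, so its direction is no independent evidence. Among the 19 falls, Cxcl2 (0.872 to 0.336 FPKM) and Saa3 (1.83 to 0.439 FPKM) passed the filter only through their control levels. Cxcl5 fell from 11.8 ± 1.94 to 2.94 ± 0.415 FPKM (limma adjusted p = 0.00036), and Ccl20 from 5.01 to 1.55 FPKM. The chemokine genes Cxcl1 and Ccl7 fell from 19.1 to 5.51 and from 48.2 to 16.7 FPKM, and Ptgs2, the inducible cyclooxygenase, by 1.72 on the log2 scale. Lcn2, an iron-binding protein of neutrophils and inflamed tissue, had the smallest p of the list and fell by 1.46 on the log2 scale. Il6 fell from 1.79 ± 0.497 to 0.505 ± 0.199 FPKM (limma adjusted p = 0.0099), and Lif from 5.97 ± 0.585 to 3.14 ± 0.292 FPKM (limma adjusted p = 0.0017). Both were named after their values were seen, as were the 3 that rose. These were the adhesion molecule gene Vcam1 (18.7 to 24.4 FPKM), the metalloreductase gene Steap4 (5.35 to 8.02 FPKM) and Mmp3, stromelysin 1 (53.4 to 69.1 FPKM). Mmp3 was not called without shGDF11 replicate 1 or 2 (limma adjusted p 0.0031 to 0.0535 over its alternatives).

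**Figure D4:**
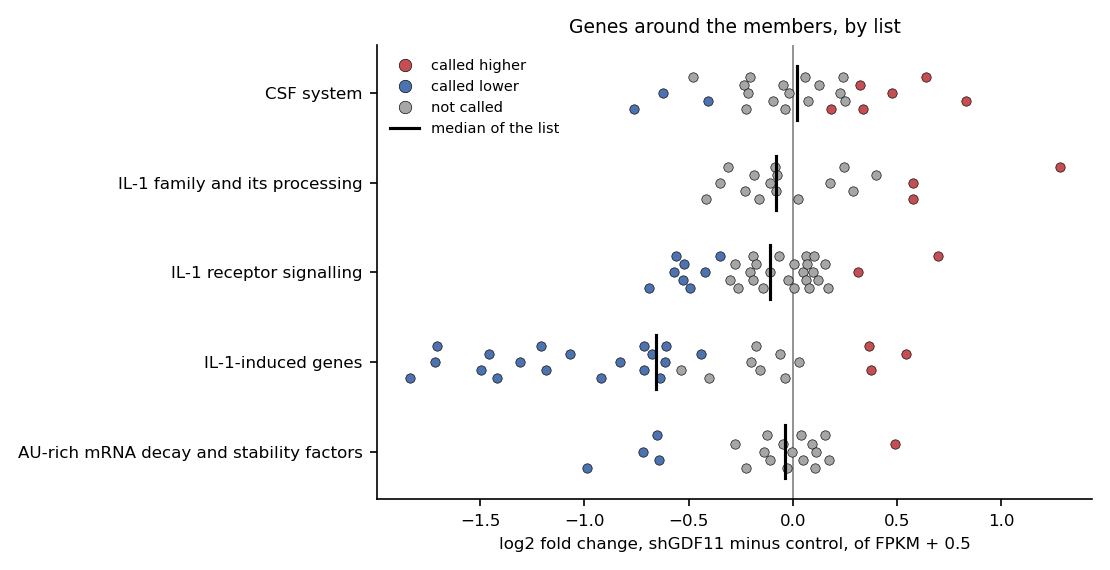
Log2 fold change (shGDF11 minus control) of each tested gene of the 5 pathway lists, with a point per gene coloured by its limma call and a line at the list's median. The IL-1-induced genes had a median of -0.66, and the other 4 lists had medians between -0.11 and 0.02.

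Factors that bind AU-rich elements or set the stability of such messages are listed because Csf3 and Csf2 carry these elements. Of 20, all tested, 4 fell, 1 rose and 15 were not called. The 25% called lay near the 27.6% over all tested genes. Their median log2 fold change was -0.04. Zfp36, which encodes tristetraprolin, a factor that speeds the decay of AU-rich messages, fell from 9.86 ± 2.05 to 4.70 ± 0.775 FPKM (limma adjusted p = 0.0059). Its relative Zfp36l2 fell from 10.3 to 6.33 FPKM and the decay factor gene Khsrp from 23.3 to 14.7 FPKM. Mapkapk2, the kinase that stabilises cytokine messages by acting on tristetraprolin, fell from 63.4 to 37.9 FPKM. The deadenylase gene Parn rose from 3.77 to 5.52 FPKM.

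The genes whose pattern over the 6 libraries was most like that of a member were found by the root mean square difference in log2(FPKM + 0.5), after each gene's control mean was taken off, among 12858 protein-coding tested genes. For Csf3 they were Nppb, the B-type natriuretic peptide gene (0.155, 84.2 to 15.7 FPKM), Wif1, a Wnt inhibitor (0.337, 19.0 to 4.34 FPKM), and Hspa1a (0.391), which can share reads with its copy Hspa1b. Even the nearest thus lay farther from Csf3 than the nearest of any other member from it. The distance rests on the values by which Csf3 was chosen, so nothing is read from it. For Il1a they were the uncoupling protein gene Ucp2 (0.106, 14.4 to 7.20 FPKM), Depp1 (0.107) and Rem2 (0.109). For Il1r1 they were Tor3a (0.0228, 7.43 to 10.4 FPKM), the poly(A)-binding protein gene Pabpc1 (0.0261) and the tRNA synthetase gene Iars (0.0281). For Il33 they were Gm6169 (0.106), Nxt2 (0.130, 3.26 to 5.27 FPKM) and Wisp2 (0.130, 0.902 to 1.63 FPKM). For Csf1 they were Myo18b, Plec and Zswim8, for Csf1r Jmjd4, Pomt2 and Pde4a, and for Il1rap Tnfaip8, Ago4 and Zfp974, with differences of 0.014 to 0.0274.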

How the data were processed

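The 10 genes and the gene lists were chosen with earlier results of these data known. RNA-seq was analysed in 6 libraries, grouped by their treatment label. The authors deposited FPKM values (reads scaled by gene length and library depth) for 54532 genes. The tools listed in the submitters' processing notes are CASAVA 1.8, HISAT2 2.0.5 and featureCounts 1.5.0-p3, with the builds GRCm38 and mm10 and no role or order. Not given in the sources used here are the annotation release and the strand setting. Of 54409 gene identifiers found in GENCODE M21, 53499 had the same coordinates, so positions are given on GRCm38.

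FPKM times gene length gave whole reads (100% of positive values within 0.05 of a whole number), which supplied read counts and intervals. The 15267083 to 16152910 reads per library set a floor of 3 reads, or 0.18 to 0.191 FPKM for a gene of 1 kb. The test was limma 3.58.1 in R 4.3.3 (eBayes with a variance trend, two-sided) on log2(FPKM + 0.5), for genes whose mean reached 0.5 FPKM. Calls were made where the p-value, Benjamini-Hochberg adjusted over all tested genes, was under 0.05. The fit was run on simulated reads, with fewer changed genes than were called here and the same spread set for every gene. That run therefore does not measure the error of the calls in these data.

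The named genes were Gdf11, the 10 members, up to 6 tested genes with the smallest p in each pathway list, and for each tested member the 3 genes most like it. List and marker genes named beyond that rule were named after their values were seen. Alternatives were the pseudocount (0.1 or 1), the filter (none, 1 or 5 FPKM), the scaling (TPM, median of ratios, quantiles), the variance model, library weights, limma voom on the recovered reads, a replicate block, protein-coding genes only and the omission of each library. Groups of 3 were not tested for outlying libraries.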

Additional observations from a re-analysis of the deposited data

How the results depend on the processing

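Since the members were chosen on this contrast, the member values below are a description of the settings and no support. The log2 fold change ran from -2.95 to -2.06 for Csf3, from -1.56 to -0.70 for Il1a, from 0.42 to 0.57 for Il1r1, from 0.43 to 0.88 for Il33 and from -0.02 to 0.09 for Csf1r. The log2 fold change of Gdf11 ran from -1.88 to -1.05, called in 18 of 18 alternatives. Genes called higher numbered 1474 at a mean of at least 5 FPKM and genes called lower 1315 after rescaling to TPM, which moved the median of all genes to 0.09. Without 1 library they ran from 1263 to 2252 higher and from 1083 to 1986 lower. Over all tested genes 2806 were higher and 2609 lower with library weights, 2598 and 2462 in limma voom, and 2577 and 1315 with TPM. The counts were 2224 and 2021 at pseudocount 1, 1686 and 1411 with no filter, and 2136 and 1995 at 1 FPKM. At 5 FPKM they were 1474 and 1451, and over protein-coding genes 2293 and 2306. The member and list counts below stand beside these. Members called higher were 2, with Il33, at pseudocount 1, at a mean of at least 1 FPKM, with library weights, in limma voom, with the replicate block and over protein-coding genes only. Without 1 library they were 1 to 2. Members called lower were 1 at a mean of at least 1 FPKM, where Il1a was not tested, and 0 at 5 FPKM, where Csf3 was not tested either. Without 1 library they were 2.

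CSF system genes called lower were 1 with no filter, 0 at 5 FPKM and 1 under the replicate block (1 to 2 without 1 library, with 3 to 6 higher). Csf2rb, Stat5a and Inpp5d had means under 5 FPKM, so they were not tested at that filter. In the IL-1 family 1 was lower at 1 FPKM, at 5 FPKM and over protein-coding genes, and 2 with library weights and in limma voom, while 5 were higher with TPM, in limma voom and over protein-coding genes. Without 1 library 0 to 1 were lower and 3 to 4 higher. Signalling genes called lower were 4 with no filter and 5 at 5 FPKM and with TPM, with 4 to 8 lower and 1 to 2 higher without 1 library. At 5 FPKM Irak2, among others, was not tested. IL-1-induced genes called lower were 9 at 5 FPKM, where several that fell, such as Ccl20 and Il6, were not tested, and 18 to 21 without 1 library. No AU-rich factor was called higher at 5 FPKM (0), where Parn was not tested. Of 560 values for the 30 list genes named by rule, 531 kept their call, 11 lost it, 18 gained it and none was reversed.

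The values gave no sign that the replicate numbers pair the samples. The deviations of same-numbered libraries from their group means correlated at 0.0154, 0.015 and -0.0522. Small correlations cannot exclude a shared culture or batch, and the labels do not say. Fitted with a replicate block, 1655 genes were called higher and 1568 lower. The smallest counts (Csf2, Il1b, Il1rl1) are limited by depth, since 3 reads per library are the floor.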
